A study of Macaca fascicularis with 23 samples.

Results

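Fibrinogen is the soluble clotting protein of plasma, and its 3 chains are encoded by FGA, FGB and FGG. FGL1 encodes fibrinogen-like protein 1, a secreted liver protein that shares the fibrinogen carboxy-terminal domain with FGB and FGG. The transcripts of these 4 genes were followed in liver from ciprofibrate-dosed cynomolgus monkeys (Macaca fascicularis). They were chosen by name: every probe set that the array annotation assigned to FGA, FGB, FGG or FGL1 was taken. That gave 4 probe sets of 12625 on the array, 1 for each gene, and all 4 were among the 7535 bright enough to be tested.

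Ciprofibrate is a fibrate drug that activates PPAR-alpha, a nuclear receptor of fatty acid metabolism, and fibrates are known clinically for lowering plasma fibrinogen. Liver RNA of 23 animals was hybridised, 1 array per animal, to arrays whose probes were designed against human transcripts. After 4 days of dosing there were 2 vehicle animals and 2 animals at 400 mg/kg/day. At 15 days the groups were vehicle (3 animals) and daily doses of 3, 30, 150 and 400 mg/kg (4 animals each). Strain, age and sex were not given in the labels, and no genetic change or second agent was named for any group. Replicates are separate animals, numbered as in the labels. The tissue was bulk liver, so fewer cells of a type and less RNA per cell cannot be told apart.

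Hepatocytes make the 3 fibrinogen chains and assemble them in the endoplasmic reticulum into a symmetric molecule. Thrombin removes the fibrinopeptides from the FGA and FGB chains, which starts fibrin polymerisation. The FGG chain carries a cross-linking site for factor XIII and a binding site for the platelet integrin. The chain genes are acute phase genes that interleukin 6 induces. FGL1 lacks the parts of the chains needed to form a clot, and is known as a hepatocyte mitogen and as a ligand of the T cell receptor LAG3. In the gene order of the macaque assembly T2T-MFA8v1.1, FGB lies next to FGA, and 1 predicted locus separates FGA from FGG. FGL1 is on another chromosome.

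Array medians lay between 55 and 71.6, and the correlation of an array to others of its group between 0.846 and 0.921. Of the hepatocyte markers listed, 10 were above the intensity filter, with a summed intensity of 99684 to 114312 in 15-day vehicle animals. Such sums describe signal and not cell numbers. Among probe sets tested, the mean of FGA stood at percentile 66.4, that of FGB at 87.7, that of FGL1 at 94.4 and that of FGG at 96.8. Percentiles of different probes show signal above the filter and not the relative abundance of the transcripts.

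FGL1 was lower at the highest dose, and the fibrinogen chains were not called lower there. After 15 days the FGL1 intensity was 1061.1, 2911.2 and 3733.7 in the vehicle animals and 217.4, 223.7, 329.4 and 949.7 in the animals at 400 mg/kg/day. Every treated animal lay below every vehicle animal, as in 6.53% of all probe sets tested, although the highest treated and the lowest vehicle animal were close. The group means were 2569 ± 1369 (SD, n = 3) and 430 ± 350 (SD, n = 4). The change was -2.62 ± 0.53 (SE) on the log2(intensity + 16) scale, a 6.16-fold lower value with a 95% interval of -3.72 to -1.53 on the log2 scale. Limma's adjusted p over all 7535 probe sets was 0.00643, and only 3 of those probe sets had a lower estimate. FGL1 was thus the 1 called gene of the 4, where 2.14% of all probe sets tested were called. Without vehicle replicate 3, the highest vehicle animal, the change was -2.26 and missed the threshold (adjusted p = 0.0513).

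FGL1 at the lower doses was followed next. At 150 mg/kg/day over 15 days the FGL1 intensity was 632.7, 1367.8, 569.9 and 217.0. Of these animals 3 of 4 lay below every vehicle animal, while replicate 2 was above the lowest vehicle animal. The change was -1.94 ± 0.53 (SE), with an interval of -3.04 to -0.85, but limma's adjusted p was 0.104, so it was not called. At that dose 0.677% of probe sets were called. Limma called 0 of the 4 genes there. FGL1 was the 1 with an unadjusted p under 0.05, beside 850 of all 7535 probe sets (11.3%). With weights that downgrade noisy arrays the same change was -2.06 with an adjusted p of 0.0458.

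At 30 mg/kg/day the FGL1 intensity was 2341.0, 1959.6, 1901.6 and 758.4, and the change was -0.49 ± 0.53 (SE). Only replicate 4 was below the vehicle range. At 3 mg/kg/day the intensity was 2935.0, 1790.7, 2072.9 and 1412.5, all within the vehicle range, and the change was -0.19 ± 0.53 (SE). At neither dose did limma call any of the 4 genes, and 0 of them had an unadjusted p under 0.05. The share of all probe sets called was 0.0133% at 30 mg/kg/day and 0% at 3 mg/kg/day, where 757 had an unadjusted p under 0.05.

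**Figure D1:**
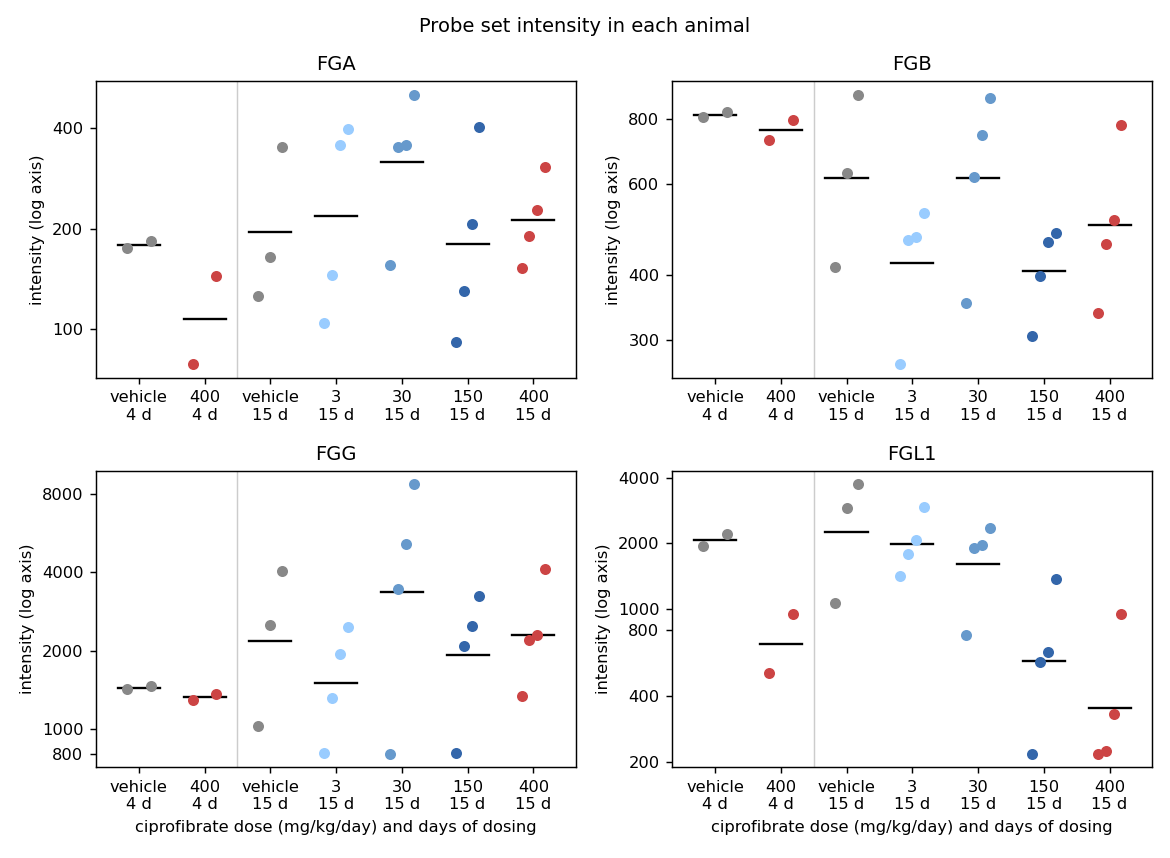
Probe set intensity (log axis) of FGA, FGB, FGG and FGL1 in each of 23 animals by dose in mg/kg/day and days of dosing; points are animals, spread sideways for display, and bars are means on the log2(intensity + 16) scale. The FGL1 points at 400 mg/kg/day over 15 days lie between 217.4 and 949.7, below the 15-day vehicle points, while the points of the 3 chains overlap between those groups.

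Across the 15-day animals FGL1 fell with dose. With vehicle, 3, 30, 150 and 400 mg/kg/day taken as equal steps, the slope was -0.70 ± 0.12 (SE) log2 units per step (interval -0.94 to -0.46, limma adjusted p = 0.000748). This was the 3rd lowest slope of the 7535 probe sets, of which 3.11% were called. The slope stayed called without any single one of the 19 animals, between -0.81 and -0.63 per step.

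Comparisons among treated groups leave out the means of the vehicle groups. Between 400 and 3 mg/kg/day FGL1 differed by -2.43 ± 0.49 (SE; limma adjusted p = 0.0043), and all 4 animals at 400 lay below all 4 at 3 mg/kg/day, as in 5.45% of all probe sets. In that comparison 4.18% of probe sets were called, and FGL1 was called without each of the 8 animals in turn. Between neighbouring doses no difference of FGL1 was called. It was -0.30 ± 0.49 (SE) from 3 to 30 mg/kg/day (0.0133% of probe sets called), and -1.45 ± 0.49 (SE) from 30 to 150 mg/kg/day (0.0133% called, adjusted p = 0.322). From 150 to 400 mg/kg/day it was -0.68 ± 0.49 (SE), with an interval of -1.69 to 0.34 and 0.491% of probe sets called.

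The 4-day animals gave a smaller estimate for FGL1. The FGL1 intensity was 1942.3 and 2202.6 in the vehicle animals and 943.7 and 506.8 in the animals at 400 mg/kg/day. Both treated animals lay below both vehicle animals, which with 2 animals a group held for 23.6% of all probe sets (1776 of 7535). The change of -1.56 ± 0.69 (SE) had an unadjusted p of 0.0346 and a limma adjusted p of 0.595, so it was not called with 2 animals a group, where 0.292% of probe sets were called. The 15-day effect minus the 4-day effect was -1.07 ± 0.87 (SE; limma adjusted p = 0.999), which does not show that the effects differ. For that difference 0% of probe sets were called and 254 had an unadjusted p under 0.05. Vehicle animals differed by 0.13 ± 0.63 (SE) in FGL1 between 15 and 4 days, a comparison with 0.863% of probe sets called, none of them among the 4 genes.

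The order of the FGL1 means on the log2 scale, from the lowest, was 400 at 15 days (8.53), 150 (9.21), 400 at 4 days (9.47), 30 (10.66), 3 (10.96), vehicle at 4 days (11.03) and vehicle at 15 days (11.15). The ranges of every pair of neighbours in this order overlapped. The spread between animals of a group was wide, with an SD of 0.44 to 1.05 log2 units in the 15-day groups.

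FGA, the chain from which thrombin cuts fibrinopeptide A, showed no called change. After 15 days its intensity was 164.8, 349.5 and 125.5 with vehicle and 190.0, 226.7, 152.5 and 304.6 at 400 mg/kg/day. The treated animals lay wholly within the vehicle range. The change was 0.11 ± 0.47 (SE), with an interval of -0.85 to 1.08 log2 units. At 3 mg/kg/day the FGA intensity was 354.9, 104.6, 395.1 and 145.0, at 30 it was 355.9, 155.7, 350.1 and 501.9, and at 150 it was 402.4, 130.6, 91.6 and 205.9. Each of these groups overlapped vehicle, and animals of 1 dose lay far apart. The changes were 0.15, 0.65 and -0.11, each ± 0.47 (SE). At 4 days FGA was 183.4 and 174.8 with vehicle against 78.8 and 143.9 at 400 mg/kg/day, which did not overlap (change -0.66 ± 0.61, SE, not called).

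FGB, the chain from which fibrinopeptide B is cut, had the narrowest intervals of the 4 genes. Its intensity after 15 days was 414.2, 891.4 and 628.4 with vehicle and 458.3, 511.3, 337.8 and 777.2 at 400 mg/kg/day. The groups overlapped almost fully, with only replicate 3 of the treated animals below the vehicle range. The change was -0.29 ± 0.30 (SE), with an interval of -0.91 to 0.32, which leaves out a fall as large as the -2.62 estimated for FGL1. At 3 mg/kg/day FGB was 526.5, 473.9, 467.2 and 269.4, at 30 it was 744.8, 619.0, 876.6 and 354.1, and at 150 it was 399.2, 483.1, 463.0 and 305.7. All 4 animals at 150 mg/kg/day lay below the vehicle median, yet that change, -0.58 ± 0.30 (SE), was not called (limma adjusted p = 0.476). The change was -0.53 at 3 and 0.00 at 30 mg/kg/day, each ± 0.30 (SE), so the estimates followed no order of dose (slope -0.06 ± 0.07 per step, SE). At 4 days FGB was 825.7 and 805.8 with vehicle and 796.0 and 729.1 at 400 mg/kg/day, which did not overlap but differed by only -0.10 ± 0.39 (SE).

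FGG, the chain that carries the factor XIII and platelet integrin sites, had the widest intervals of the 4 genes. Its intensity after 15 days was 1022.4, 4025.8 and 2501.4 with vehicle and 1343.8, 2300.0, 2205.5 and 4133.4 at 400 mg/kg/day. The ranges of vehicle and treated animals nearly coincided. The change was 0.08 ± 0.60 (SE), with an interval of -1.15 to 1.31. At 3 mg/kg/day FGG was 2453.1, 1313.9, 1942.2 and 811.6, at 30 it was 8718.7, 3436.6, 5147.5 and 802.3, and at 150 it was 2488.6, 3227.1, 2090.9 and 808.4. In each of these doses replicate 4 was the lowest animal, and the 30 mg/kg/day group held both the highest and the lowest FGG value of all 23 animals. The changes against vehicle were -0.53, 0.61 and -0.18, each ± 0.60 (SE). Between 3 and 30 mg/kg/day FGG differed by 1.15 ± 0.55 (SE), with an unadjusted p of 0.0493 and a limma adjusted p of 0.666. At 4 days it was 1462.9 and 1418.3 with vehicle and 1293.7 and 1361.2 at 400 mg/kg/day, a change of -0.12 ± 0.78 (SE) between groups that did not overlap.

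For the chains the order of the means followed no dose. From the lowest mean on the log2 scale, FGB ran 150, 3, 400, vehicle and 30 at 15 days, followed by 400 and vehicle at 4 days. FGG ran 400 and vehicle at 4 days, then 3, 150, vehicle, 400 and 30 at 15 days. FGA had the same first and last groups as FGG, with 150, vehicle, 400 and 3 between them. Neighbours in these orders overlapped, except the pair of 4-day groups in each gene. At 4 days both treated animals lay below both vehicle animals in all 4 genes, beside 23.6% of all probe sets, and limma called 0 of the 4. FGL1 alone of the 4 had an unadjusted p under 0.05 there, beside 575 of all 7535 probe sets (7.63%). On the same 4 arrays the summed intensity of the 10 hepatocyte markers was 80609 to 81160 with vehicle and 66021 to 67709 at 400 mg/kg/day, which also did not overlap. The part of these values in the 4-day estimates was not tested.

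A general fall of the chains over all doses was asked with the mean of the 4 doses against vehicle at 15 days, where 0.239% of probe sets were called. FGB changed by -0.35 ± 0.25 (SE), with an interval of -0.86 to 0.16. FGA changed by 0.20 ± 0.38 (SE; -0.59 to 1.00) and FGG by -0.00 ± 0.49 (SE; -1.02 to 1.01). FGL1 changed by -1.31 ± 0.44 (SE; -2.21 to -0.41; limma adjusted p = 0.232), so limma called 0 of the 4 genes. An unadjusted p under 0.05 was seen in 1 of them, FGL1, beside 805 of all 7535 probe sets (10.7%).

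**Figure D2:**
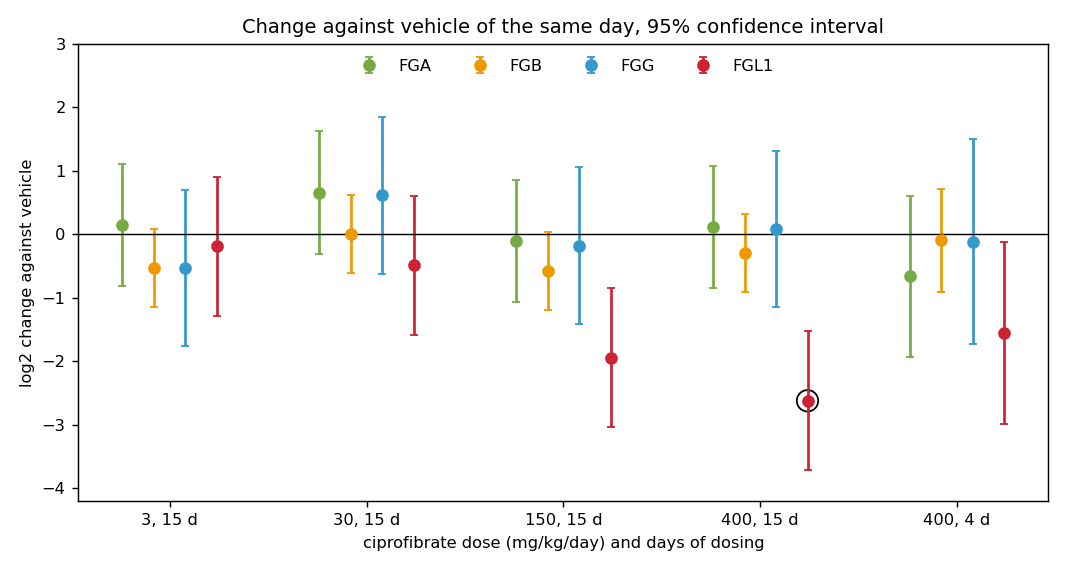
Change against vehicle of the same day on the log2(intensity + 16) scale for FGA, FGB, FGG and FGL1 at each dose (mg/kg/day) and day; points are estimates of the fit and bars their 95% confidence intervals. The ringed FGL1 point at 400 mg/kg/day over 15 days, -2.62, is the 1 called value, and the intervals of the 3 chains include 0 in every group.

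Whether FGL1 changed differently from the chains was tested within arrays. The log2 value of a chain was subtracted from that of FGL1 on the same array, so that any scaling of a whole array nearly cancels. The difference itself sets one probe set against another and has no meaning as a level, and only its change between groups is read. From vehicle to 400 mg/kg/day at 15 days it changed by -2.74 against FGA, by -2.33 against FGB and by -2.70 against FGG. In each case all 4 treated animals lay below all 3 vehicle animals. The two-sided exact permutation p was 0.0286 for each chain, the smallest that 35 splits of 7 animals allow, and 0.0571 after adjustment over the 6 tests of this kind. The other 3 tests set all 16 treated animals against vehicle and gave -1.51 for FGA, -0.96 for FGB and -1.31 for FGG (exact permutation p = 0.0815, 0.183 and 0.103).

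For FGG the mean of this difference was 0.05 ± 0.52 (SD, n = 3) with vehicle, 0.39 ± 0.30 (SD, n = 4) at 3, -1.05 ± 0.79 at 30, -1.71 ± 0.33 at 150 and -2.65 ± 0.48 at 400 mg/kg/day. The 4 animals at 400 mg/kg/day ran from -3.27 to -2.10 and those at 150 from -1.95 to -1.23, so these doses did not overlap for FGG. How often other pairs of probe sets separate these doses was not counted, so no result is read from it. Against the other chains these doses did overlap, with -0.02 to 1.59 at 400 and 0.07 to 3.24 at 150 mg/kg/day for FGA, and -1.14 to 0.28 and -0.47 to 1.47 for FGB. FGL1 on its own overlapped between these doses too. At 4 days the difference was 0.63 and 0.41 with vehicle and -0.45 and -1.40 at 400 mg/kg/day. In a comparison chosen after the values were seen, the slope over the dose steps was -0.71 per step against FGA (permutation p = 0.00074), -0.67 against FGB (p = 3e-05) and -0.78 against FGG (p = 2e-05; 19 animals, 100000 permutations). Adjusted over these 3 slopes the p values were 0.00074, 4.5e-05 and 4.5e-05. FGL1 alone had a slope of -0.70 per step, and FGA, FGB and FGG had slopes of -0.003, -0.06 and 0.05. All 3 differences share the FGL1 values, so their slopes largely repeat the slope of FGL1. They are descriptions and no independent support. The earlier exact permutation tests of 400 mg/kg/day against vehicle had an adjusted p of 0.0571 for each chain and were not passed.

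**Figure D3:**
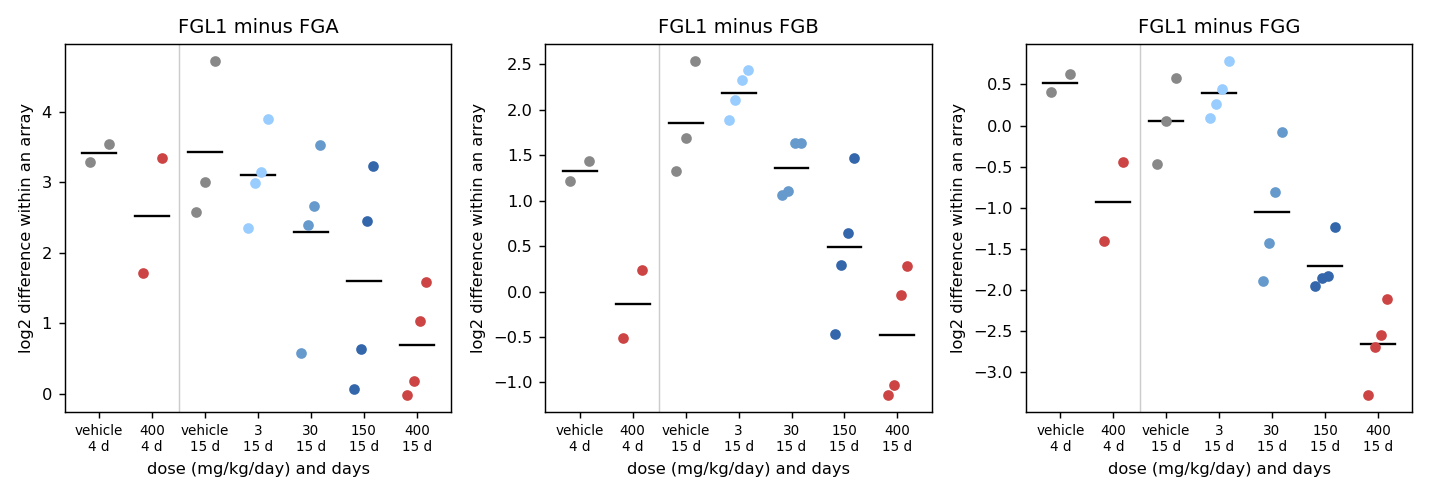
Log2 value of FGL1 minus that of FGA, FGB or FGG on the same array, by dose (mg/kg/day) and days; points are animals and bars group means. Against FGG the animals at 400 mg/kg/day over 15 days lie between -3.27 and -2.10, below all animals at 150 mg/kg/day and below all vehicle animals, while against FGA and FGB the animals at 400 and 150 mg/kg/day overlap. How often other pairs of probe sets separate 400 from 150 mg/kg/day was not counted.

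Animals of 1 group were then compared with each other, after each value was taken as its deviation from the group mean. Correlations passed the test in the 3 pairs among FGB, FGG and FGL1, and in none of the 3 pairs with FGA. FGB and FGG correlated with Pearson's r = 0.86 and Spearman's rho = 0.83 over 23 animals (permutation p adjusted over 6 pairs 0.00072 and 0.00054). Deviations of FGB and FGG had the same sign in 18 of 23 animals. FGG and FGL1 correlated with r = 0.83 and rho = 0.84 (adjusted permutation p = 0.00024 and 0.0009), also with the same sign in 18 animals. FGB and FGL1 correlated with r = 0.75 and rho = 0.75 (adjusted permutation p = 0.00222 and 0.0014), with the same sign in 17 animals. Without the 2 animals farthest from the median of the first gene, r was 0.79, 0.85 and 0.72 in the same order. Within the 19 animals of 15 days it was 0.86, 0.85 and 0.76.

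Single animals show this co-variation. In 15-day vehicle replicate 1, FGB, FGG and FGL1 deviated by -0.55, -1.08 and -1.08 log2 units from their group means. At 30 mg/kg/day replicate 4 deviated by -0.77 in FGB, by -2.04 in FGG and by -1.07 in FGL1, and at 150 mg/kg/day replicate 4 by -0.39, -1.23 and -1.34. At 400 mg/kg/day replicate 4 was high in all 3 genes, with deviations of 0.62, 0.84 and 1.39. Replicate 4 at 30 mg/kg/day, the lowest animal of all in FGG, was the highest of its group in FGA (501.9). FGA correlated with FGB at r = 0.17 and rho = 0.17 (adjusted permutation p = 0.674 and 0.629), with the same sign in 13 of 23 animals. With FGG it correlated at r = 0.16 and rho = 0.34 (adjusted permutation p = 0.674 and 0.286), with the same sign in 16 animals. With FGL1 it correlated at r = -0.01 and rho = 0.06 (adjusted permutation p = 0.979 and 0.829), with the same sign in 13.

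Array quality was set beside this co-variation. The array of replicate 4 at 30 mg/kg/day had the lowest correlation to its group (0.846) and the highest median (71.6) of the 23. A sign of RNA quality is the ACTB probe set for the 5' end divided by that for the 3' end. Replicate 4 had the highest, and not the lowest, such ratio of its group at 3 (0.979), 30 (0.704) and 150 mg/kg/day (0.825). The same ratio of GAPDH was highest in replicate 4 at 3 (1.55) and 150 mg/kg/day (1.35). At 30 mg/kg/day replicate 4 (1.18) stood below replicates 1 (1.20) and 2 (1.37) in the GAPDH ratio. Without these 3 arrays of replicate 4, left out after the values were seen, FGB and FGG correlated at r = 0.74 over 20 animals. FGB and FGL1 then correlated at r = 0.66, and neither pair passed the threshold (adjusted permutation p = 0.0674 and 0.11). FGG and FGL1 correlated at r = 0.76 and passed it (adjusted permutation p = 0.0149). FGA then correlated with FGB at r = 0.36, with FGG at r = 0.53 and with FGL1 at r = 0.13 (adjusted permutation p = 0.146, 0.0727 and 0.621). Leaving out these arrays also removes animals far from their group means, and the part of array quality in the co-variation was not tested further. Each gene has 1 probe set, and how well the human FGA probes match the monkey transcript was not tested.

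**Figure D4:**
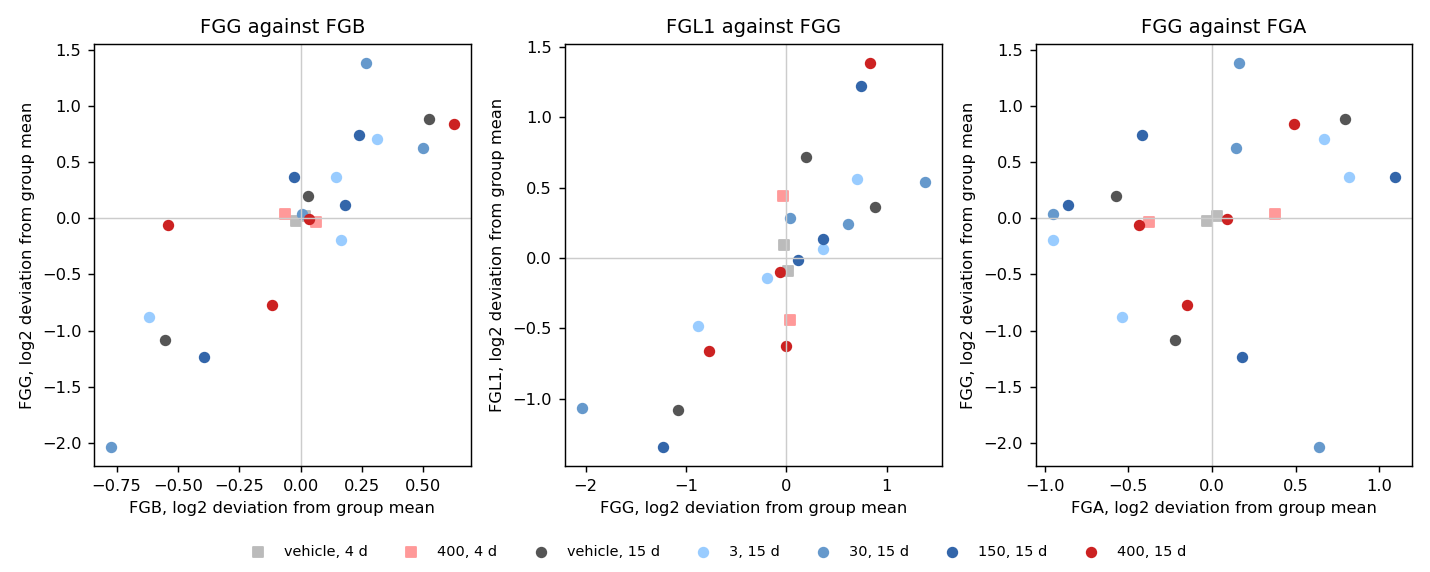
Deviation of each animal from its group mean on the log2(intensity + 16) scale, for FGG against FGB, FGL1 against FGG and FGG against FGA; each point is 1 of 23 animals, coloured by dose and day, with squares for 4 days. The first pair of panels rise from lower left to upper right (r = 0.86 and 0.83), and the panel with FGA shows no such line (r = 0.16).

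Genes most alike to each member were found among the 5461 other genes measured, by Pearson's r over the same 23 arrays. These r values are descriptions of the strongest matches among many genes and carry no test. The values keep the dose groups, so a gene picked for following FGL1 tends to fall where FGL1 falls. The changes and calls of such genes are therefore descriptions too and no independent support. For FGL1 they were PTP4A1, a phosphatase (0.84), IGF1, the insulin-like growth factor made by liver (0.84), and IQGAP2, a scaffold protein (0.81). IGF1 fell at 400 mg/kg/day over 15 days by 1.41 ± 0.30 log2 units (SE; limma adjusted p = 0.0106) and IQGAP2 by 0.83 ± 0.22 (SE; adjusted p = 0.0468). Leaving out each of the 7 animals in turn, IGF1 was called in 5 fits and IQGAP2 in 0. PTP4A1 changed by -0.88 ± 0.27 (SE; adjusted p = 0.108). For FGB they were F13B, the carrier subunit of factor XIII (0.76), ITGAX, an integrin chain that binds fibrinogen (0.74), and ARPC3 (0.72). For FGG they were TTR, the thyroxine carrier transthyretin (0.77), IL1R1, the interleukin 1 receptor (0.77), and LUC7L3 (0.76). For FGA they were FKBP5, a glucocorticoid-induced chaperone (0.72), ADAM10 (0.66) and ICE1 (0.64).

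When the dose groups were taken out by using deviations from group means, the closest genes of FGB were the complement protease C1S (0.91), FGG (0.86) and SECISBP2L (0.83). Those of FGG were FGB (0.86), the mitochondrial ADP/ATP carrier SLC25A5 (0.86) and CTNNB1, beta-catenin (0.84). Those of FGL1 were SECISBP2L (0.91), FGG (0.83) and PTP4A1 (0.82). Thus FGB ranked first of 5461 genes for FGG, and FGG ranked 2nd for both FGB and FGL1. The remaining pair was less close, with FGL1 at rank 17 for FGB and FGB at rank 15 for FGL1. With the dose groups kept, FGG ranked only 91st for FGB and 527th for FGL1. For FGA they were FKBP5 (0.74), STX11 (0.73) and DPY19L4 (0.73). Among the chains' ranks for FGA, the best was 1461, held by FGB.

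Genes that act with fibrinogen were read from lists, at 400 mg/kg/day over 15 days. Over all 5462 genes measured the median log2 change was -0.03, and the counts below stand beside 2.14% of probe sets called. Where limma called 0 genes of a list, the number with an unadjusted p under 0.05 is given, which over all probe sets was 940 of 7535 (12.5%). Of 3 measured genes of fibrin formation 0 were called and 1 had such a p (median -0.26). The cross-linking enzyme TGM2 changed by -0.59 ± 0.20 (SE), F13B by -0.26 ± 0.28 (SE) and prothrombin, F2, by -0.12 ± 0.16 (SE). TGM2 was called lower in the slope over dose steps (-0.16 ± 0.04 per step, SE; limma adjusted p = 0.0401), and in 10 of the 19 fits that each left out 1 animal. Of 11 measured clotting factors 3 fell and 0 rose (median -0.39). F12, factor XII, fell by 1.09 ± 0.22 log2 units (SE; adjusted p = 0.00669), KLKB1, prekallikrein, by 1.01 ± 0.25 (SE; adjusted p = 0.0316) and F7, factor VII, by 0.72 ± 0.16 (SE; adjusted p = 0.018). F12 stayed called in 6 of the 7 fits that each left out 1 animal, F7 in 4 and KLKB1 in 2, and with arrays scaled to the same median F12 alone was called. F11 changed by -0.83 ± 0.28 (SE) and was not called.

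Genes that limit or dissolve clots were not called in either direction. Of 8 anticoagulants 0 were called and 2 had an unadjusted p under 0.05 (median -0.28), with TFPI at -0.63 ± 0.28 (SE) and PROC, protein C, at -0.53 ± 0.22 (SE). Of 7 genes of fibrinolysis 0 were called and 1, the plasminogen-binding HRG, had such a p (median 0.13). HRG stood at 0.49 ± 0.20 (SE) and plasminogen, PLG, at -0.17 ± 0.17 (SE).

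Of 12 measured positive acute phase genes, the class to which the chains belong, 2 fell and 0 rose (median -0.27), and of 8 negative ones 1 fell and 0 rose (median 0.05), where 2.14% of all probe sets were called. HPX, the haem carrier hemopexin, fell by 1.34 ± 0.27 log2 units (SE; limma adjusted p = 0.00675), with an intensity of 11141 ± 1628 (SD) in 3 vehicle animals and 4510 ± 1414 (SD) in 4 treated animals. CFB, complement factor B, fell by 0.86 ± 0.15 (SE; adjusted p = 0.00271), and haptoglobin, HP, changed by -0.92 ± 0.31 (SE; adjusted p = 0.156). The negative acute phase gene that fell was ITIH2, an inter-alpha-trypsin inhibitor chain, by 1.21 ± 0.23 (SE; adjusted p = 0.00415). CFB and ITIH2 were called in all 7 fits that left out 1 animal and HPX in 6. The retinol carrier RBP4 changed by 0.70 ± 0.28 (SE) and was not called. Of 10 genes of interleukin 6 signalling limma called 0 and 1, PIAS3, had an unadjusted p under 0.05 (median -0.12). PIAS3 changed by -0.91 ± 0.41 (SE), the receptor IL6R by -0.33 ± 0.35 (SE) and the kinase JAK1 by 0.22 ± 0.23 (SE).

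Among 6 measured transcription factors known to bind fibrinogen gene promoters, 1 fell and 0 rose (median -0.34). CEBPB fell by 0.89 ± 0.22 log2 units (SE; limma adjusted p = 0.0339), although it was called in only 1 of the 7 fits that left out 1 animal and not with arrays scaled to the same median. CEBPD changed by -0.91 ± 0.31 (SE; adjusted p = 0.158). Of 9 measured partners and coregulators of PPAR-alpha 0 were called and 1, NRIP1, had an unadjusted p under 0.05 (median -0.10). NRIP1 changed by -0.75 ± 0.32 (SE) and PPARA itself by -0.41 ± 0.20 (SE). PPARA followed no order of dose, with 0.50 at 3, -0.24 at 30 and 0.46 at 150 mg/kg/day, each ± 0.20 (SE) and not called. At 400 mg/kg/day over 15 days 7 of 15 genes of mitochondrial fatty acid oxidation, a pathway that PPAR-alpha controls, rose and 0 fell (median 0.89). Among them the thiolase ACAA2 rose by 1.51 ± 0.20 (SE; adjusted p = 0.000141). ACAA2, HADHA, HADHB and ETFA were called in all 7 fits that left out 1 animal, SLC25A20 in 3, ECHS1 in 2 and DECR1 in 0.

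A last set of 3 lists touches FGL1 and the chains more directly. Of the other genes with a fibrinogen domain 3 were measured, of which 0 were called and 2 had an unadjusted p under 0.05 (median -0.70). The ficolin FCN2 stood at -1.04 ± 0.33 (SE), the ficolin FCN3 at -0.70 ± 0.26 (SE) and the angiopoietin ANGPT1 at 0.03 ± 0.33 (SE). FGL2, the closest namesake of FGL1, had 3 probe sets, all below the intensity filter. Of 7 receptors of fibrinogen or FGL1 0 were called and 1 had such a p (median -0.02), with the platelet integrin ITGA2B at 1.03 ± 0.40 (SE; limma adjusted p = 0.239). Of 8 genes of secretory folding and export 0 were called and 3 had such a p (median 0.10). These 3 were PDIA4 (-0.45), CANX, which went the other way (0.69), and the chaperone HSPA5 (-1.07 ± 0.41, SE; adjusted p = 0.234). Changes above 0 were seen in 5 of the 8 genes. In the slope over dose steps HSPA5 (-0.34 ± 0.09 per step, SE) and PDIA4 (-0.15 ± 0.04 per step, SE) were called lower. They were called in 14 and 17 of the 19 fits that left out 1 animal.

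**Figure D5:**
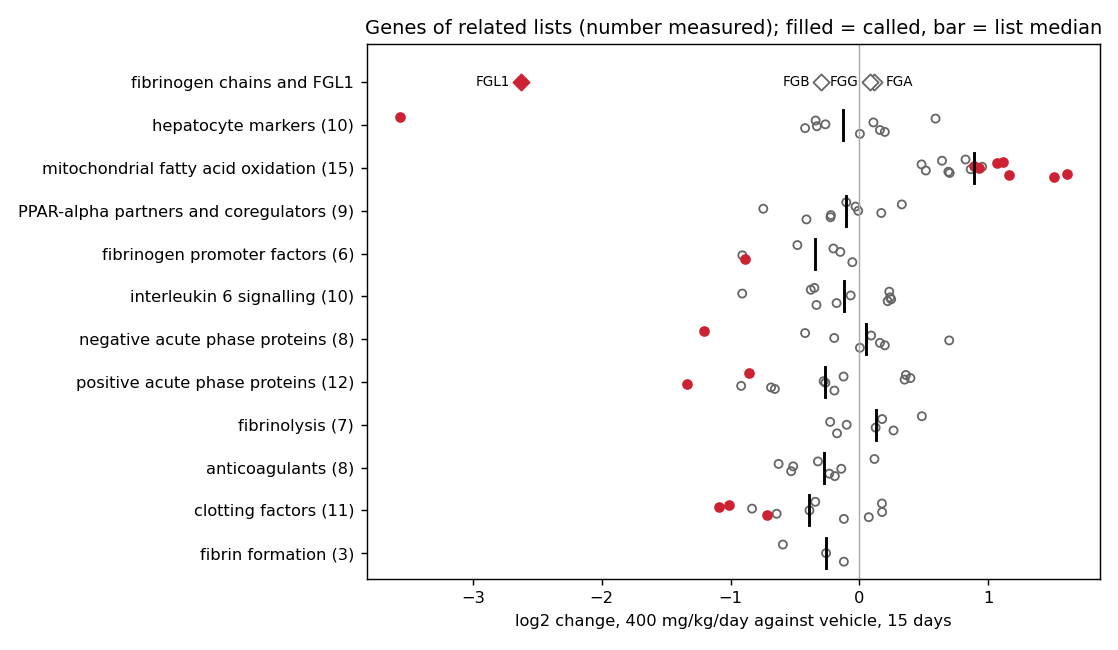
Log2 change at 400 mg/kg/day against vehicle after 15 days for the 4 genes (diamonds) and the measured genes of related lists (circles, number in brackets), with filled symbols for called genes and bars at list medians. FGL1 at -2.62 lies below every listed gene but CYP2E1 at -3.56, and the 3 chains lie within 0.3 of 0.

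Markers of cell types were set beside the FGL1 result. In hepatocytes, the source of all 4 transcripts, 1 of 10 measured markers fell, CYP2E1 (-3.56 ± 0.49, SE; limma adjusted p = 0.000161; called in all 7 fits that left out 1 animal), and 0 rose (median -0.13). The summed hepatocyte marker intensity was 99684 to 114312 with vehicle and 73738 to 86257 at 400 mg/kg/day. Limma called 0 of 7 endothelial markers, with 3 at an unadjusted p under 0.05 (median -0.63, sums 2275 to 2498 and 1549 to 1813). It called 0 of 8 Kupffer cell markers, again with 3 at such a p (median -0.36, sums 3981 to 5478 and 2578 to 3523). Of 8 stellate cell markers TIMP1 fell by 1.81 ± 0.42 (SE; adjusted p = 0.0228; list median -0.45) and was called in 3 of those 7 fits. The stellate cell sums were 964 to 1187 and 513 to 725. In the slope over dose steps 2 Kupffer cell, 2 stellate cell, 1 hepatocyte and 0 endothelial markers were called lower, beside 3.11% of all probe sets called. Between 400 and 3 mg/kg/day these counts were 2, 1, 2 and 0, beside 4.18% called. The sums of these 4 cell types were lower at 400 mg/kg/day and did not overlap with vehicle, as 6.53% of all single probe sets tested. A sum is led by its brightest markers. Changes below 0 were seen in 5 of 10 hepatocyte, 7 of 7 endothelial, 7 of 8 Kupffer cell and 7 of 8 stellate cell markers. Of 3 cholangiocyte, 4 lymphocyte, 2 platelet and 4 red cell markers 0 were called and 1, the platelet marker ITGA2B, had such a p, and their sums overlapped. The ACTB end ratio described above was 0.540 to 0.606 with vehicle and 0.552 to 0.839 at 400 mg/kg/day at 15 days, and 0.748 to 0.988 and 1.02 to 1.21 at 4 days. The GAPDH ratio overlapped on both days. It was 0.721 to 1.31 with vehicle and 0.964 to 1.25 at 400 mg/kg/day at 15 days, and 0.947 to 0.993 and 0.974 to 1.17 at 4 days. The part of these values in the change of FGL1 was not tested.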

How the data were processed

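Liver total RNA of 23 monkeys was measured on 23 human-probe arrays, 1 per animal. The deposited values are linear probe set intensities. MAS5 is named in the submitters' processing notes as the authors' tool, with its version not given in the sources used here. Trimmed means of 150.065 to 150.08 (2% off each end) show a common scaling, so none was added. The number of arrays limits the precision.

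The deposited intensities were converted to log2 after adding a pseudocount of 16. A fold change on that scale understates changes of dim probe sets. Of 12625 probe sets, 67 controls were left out and those at or above the 40th percentile of the mean were tested (7535, from a mean log2 of 5.80 or intensity 39.7). On the array 10961 probe sets named 1 gene, 545 several and 1119 none. A gene was represented by its tested probe set of highest mean, which gave 5462 genes.

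A model with 1 mean for each of 7 groups was fitted to all arrays with limma 3.58.1 in R 4.3.3 (16 residual and 6.63 prior degrees of freedom, intensity trend). All tests were two-sided. Adjustment was by Benjamini-Hochberg over the 7535 probe sets, and "called" means an adjusted p under 0.05. "Rose" and "fell" are used of called genes. Differences between FGL1 and the chains were tested by exact permutation of animals, counting splits with a mean difference at least as large in size. Correlations used 100000 permutations within groups (numpy 2.4.6). The fit was tested on simulated data. No 2 arrays were identical.

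The 4 genes and the 21 gene lists were chosen with earlier results of these data known, so that they are descriptions and not independent evidence. The comparisons of 150 with 30 and of 30 with 3 mg/kg/day and the slope of the FGL1 difference were added after the values were seen. From each list up to 4 genes with the smallest p at 400 mg/kg/day and those called could be named, and for each of the 4 genes the 3 with the highest r. Alternatives covered the pseudocount, the filter, scaling between arrays, the variance model, array weights, a replicate block, separate fits, the dose score and leaving out each animal. Same-numbered animals of different groups did not deviate together (mean r = -0.0023 over 58 pairs, 0 of them over 0.1), so the numbers were not taken to pair animals.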

Additional observations from a re-analysis of the deposited data

How the results depend on the processing

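The fall of FGL1 at 400 mg/kg/day over 15 days ran from -3.16 to -2.26 when each animal was left out, and was called in 6 of 7 such fits (not without 15-day vehicle replicate 3). It was called in all 11 other alternatives run (-2.87 to -2.46, adjusted p 0.000948 to 0.0434). The FGL1 slope was called in all 19 and 12 fits of these kinds (-0.81 to -0.63 and -0.74 to -0.66), and 400 against 3 mg/kg/day in all 8 and 11. FGL1 at 150 mg/kg/day was called under 1 of 11 alternatives, array weights (-2.06). With a replicate block FGL1 changed by -2.50 at 400 mg/kg/day over 15 days (adjusted p = 0.0201), and the block changed no call of the 4 genes. Numbers shared between groups were not taken to pair animals in the main fit.

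No chain was called under any alternative, but small estimates changed sign. With quantile normalization FGG was -0.034 at 400 mg/kg/day, FGB -0.0020 at 30 and the FGA slope 0.0021. With arrays scaled to the same median FGB was -0.014 at 30 mg/kg/day, FGG 0.038 over the 4 doses and the FGA slope 0.017. Array weights gave FGG -0.19 at 400 and FGB -0.028 at 30 mg/kg/day. The replicate block gave FGG 0.10 at 150 mg/kg/day and 0.27 over the 4 doses, and log2(dose + 1) gave an FGA slope of 0.0023. The correlation of FGA and FGL1 was 0.032 in 15-day animals alone and 0.13 without replicate 4 of 3, 30 and 150 mg/kg/day, an alternative chosen after seeing the data. That alternative left FGB at r = 0.74 with FGG and 0.66 with FGL1, no longer past the threshold, over 20 instead of 23 animals. The cause was not tested.

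Leaving out each animal gave these ranges. FGA ran from -0.17 to 0.51 at 400, -0.47 to 0.29 at 150 and -0.14 to 0.54 at 3 mg/kg/day, -0.085 to 0.60 over the 4 doses and -0.060 to 0.077 per dose step. FGB at 30 mg/kg/day ran from -0.27 to 0.26. FGG ran from -0.46 to 0.52 at 400 and -0.72 to 0.26 at 150 mg/kg/day, -0.54 to 0.44 over the 4 doses and -0.057 to 0.14 per step. FGL1 ran from -0.73 to 0.17 at 3 mg/kg/day, -0.48 to 0.055 for 30 against 3 mg/kg/day and -0.23 to 0.67 between vehicle groups. The differences of FGL1 from FGA, FGB and FGG at 400 mg/kg/day ran from -3.17 to -2.09, -2.59 to -1.98 and -2.96 to -2.44, all negative.

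Over all alternatives and left-out animals, called probe sets numbered 93 to 252 at 400 mg/kg/day, 13 to 75 at 150, 1 to 113 at 4 days, 1 to 36 for the mean of 4 doses, 1 to 262 between vehicle groups and 4 to 46 for 400 against 150 mg/kg/day. For comparisons with 0 or 1 call they stayed at or below 8. Scaling to the same median gave 109 higher and 40 lower calls at 400 mg/kg/day, against 95 and 66, and 150 and 66 in the slope, against 135 and 99. Averaging the probe sets of a gene gave no separate value, since each has 1. The number of arrays limits the precision, and the 95% intervals of the chains at 400 mg/kg/day ran from -0.91 to 0.32 for FGB and from -1.15 to 1.31 for FGG.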
